A study of Mus musculus with 25 samples.

Results

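The genes described here act on heparan sulfate, and they were chosen by name: the extracellular sulfatases Sulf1 and Sulf2, the glypicans Gpc1, Gpc2, Gpc3, Gpc4 and Gpc6, the heparanase Hpse, and the chain-building enzymes Ndst1 and Ext1. They are 10 of the 24984 genes in the deposited counts, and all 10 were found by symbol. RNAseq was performed on 25 libraries that fell into 7 groups. Of these, 9 came from cultures of BMEL cells, bipotential progenitors isolated from embryonic liver of a C57B/6_C3H mouse and grown on collagen with serum, insulin, IGFII and EGF. They were 3 cultures each of BMEL WT (labelled as carrying an empty vector, and called parental in the study), RasLOW and RasHIGH cells. Both Ras populations express human H-Ras G12V from a bicistronic vector with a fluorescent protein, and were sorted as weak or strong expressors of that protein, with overlapping gates. The parental BMEL cells were clonally derived, so the 3 lines are descendants of 1 clone. The other 16 libraries came from 4 athymic nude mice, which lack mature T cells, and whose age is not given in the labels. From the liver tumour and the peritoneal tumour of each mouse, fluorescent tumour cells and non-fluorescent stromal cells were sorted, so tumour and stromal cells differ in strain as well as in type. The labels do not say which Ras population a mouse received.

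Heparan sulfate is a long, sulfated sugar chain carried by a small set of proteins at the cell surface and in the matrix. Ext1, with its partner Ext2, polymerises the chain, and Ndst1 starts its sulfation by replacing acetyl groups on glucosamine with sulfate. The glypicans are core proteins held at the outer membrane by a lipid anchor. Sulf1 and Sulf2 are secreted enzymes that remove 6-O-sulfate groups from finished chains, and heparanase cuts the chains. The sulfate pattern sets which growth factors the chain holds, among them FGF, Wnt and Hedgehog ligands. GPC3 is a fetal liver protein used as a marker of human hepatocellular carcinoma.

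Libraries held between 20818989 and 51241336 counts, so that 3 counts corresponded to 0.0585 to 0.144 CPM (counts per 1e+06 counts), which covers counting error only. Levels are given as CPM scaled by TMM factors over all 25 libraries, and errors beside them are SDs. The labelled cell types were checked against marker genes. The summed level of 9 epithelial or hepatic progenitor genes was 7470 to 11552 CPM in the cell lines and tumour cells, and 721 to 1685 CPM in stroma, but Epcam was under 1 CPM in each line and tumour cell library. Mouse Hras does not check the transgene, which is a human cDNA, and it lay at 46.7 to 101 CPM in the 9 cell line libraries. By the labels, lane 4 held 7 of the 9 cultures, and lane 3 the first and second BMEL WT cultures.

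Sulf2 lies on chromosome 2 from 165898589 to 165981163 of mm9 on the minus strand, and Sulf1 on chromosome 1 from 12708626 to 12850452 on the plus strand. Gpc4 (49406198 to 49518429) and Gpc3 (49625603 to 49967127) are neighbours on the minus strand of chromosome X. By GENCODE vM1, 38.8% of the exon bases of Gpc2 are also exon of Gal3st4 on the same strand, so the reads of Gpc2 are uncertain, while 2.65% of those of Sulf2 overlap Ncoa3 on the other strand. Promoter sequences from RefSeq (GRCm38.p6) were matched for 5 of the 10 genes. Those of Sulf2, the 1 member called between each pair of cell lines, and of Gpc3, the member with the greatest fold change between the stromas, are given as the 250 bases before the start, each found once in mm9. They lie at chr2:165981184-165981433 and chrX:49967152-49967401, both on the minus strand, and capitals mark the GC box GGGCGG on either strand.
Sulf2: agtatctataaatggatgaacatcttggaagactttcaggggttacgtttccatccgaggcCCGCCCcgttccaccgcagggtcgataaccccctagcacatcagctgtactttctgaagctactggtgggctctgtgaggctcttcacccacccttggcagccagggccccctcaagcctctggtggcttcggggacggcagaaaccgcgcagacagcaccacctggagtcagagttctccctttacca
Gpc3: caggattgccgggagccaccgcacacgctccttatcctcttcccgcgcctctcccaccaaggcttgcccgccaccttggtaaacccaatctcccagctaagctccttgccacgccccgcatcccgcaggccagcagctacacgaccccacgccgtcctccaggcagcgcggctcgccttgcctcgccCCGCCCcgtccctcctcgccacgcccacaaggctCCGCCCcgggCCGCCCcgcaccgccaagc
The Sulf2 window held 1 GC box and 10 CG pairs, and the Gpc3 window 3 GC boxes and 25 CG pairs. Of 32536 mouse promoter windows of this length, 33% held a GC box, and the median was 6 CG pairs. The letters TATAAA occurred once in the Sulf2 window, and in 12.3% of all windows. Neither the AP-1 motif TGANTCA (6.73% of all windows) nor the ETS motif CCGGAA (12.1%) was matched in either window, on either strand and without overlap between motifs.

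The question in culture was how the genes vary with the dose of oncogenic Ras in culture. Sulf2 stood at 358, 334 and 384 CPM in the 3 BMEL WT cultures, at 80.3, 96.8 and 63.0 CPM in RasLOW and at 13.4, 15.2 and 16 CPM in RasHIGH. The 3 groups did not overlap. Means were 359 ± 25, 80.1 ± 16.9 and 14.9 ± 1.31 CPM (n = 3 each), so Sulf2 was 4.48-fold lower in RasLOW and 24.1-fold lower in RasHIGH than in BMEL WT. Fitted log2 fold changes were -2.19 (SE 0.19, adjusted p = 0.0041, edgeR) and -4.63 (SE 0.15, adjusted p = 1.91e-05). Between RasHIGH and RasLOW the difference was -2.43 (SE 0.21, adjusted p = 0.02). Sulf1 gave no read in any Ras culture and at most 3 reads in a BMEL WT culture, so the sulfatase transcripts of the lines were almost all Sulf2. Summed per kilobase of exon, Sulf1 and Sulf2 came to 61.6 CPM per kilobase in BMEL WT, 13.8 in RasLOW and 2.56 in RasHIGH.

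**Figure D1:**
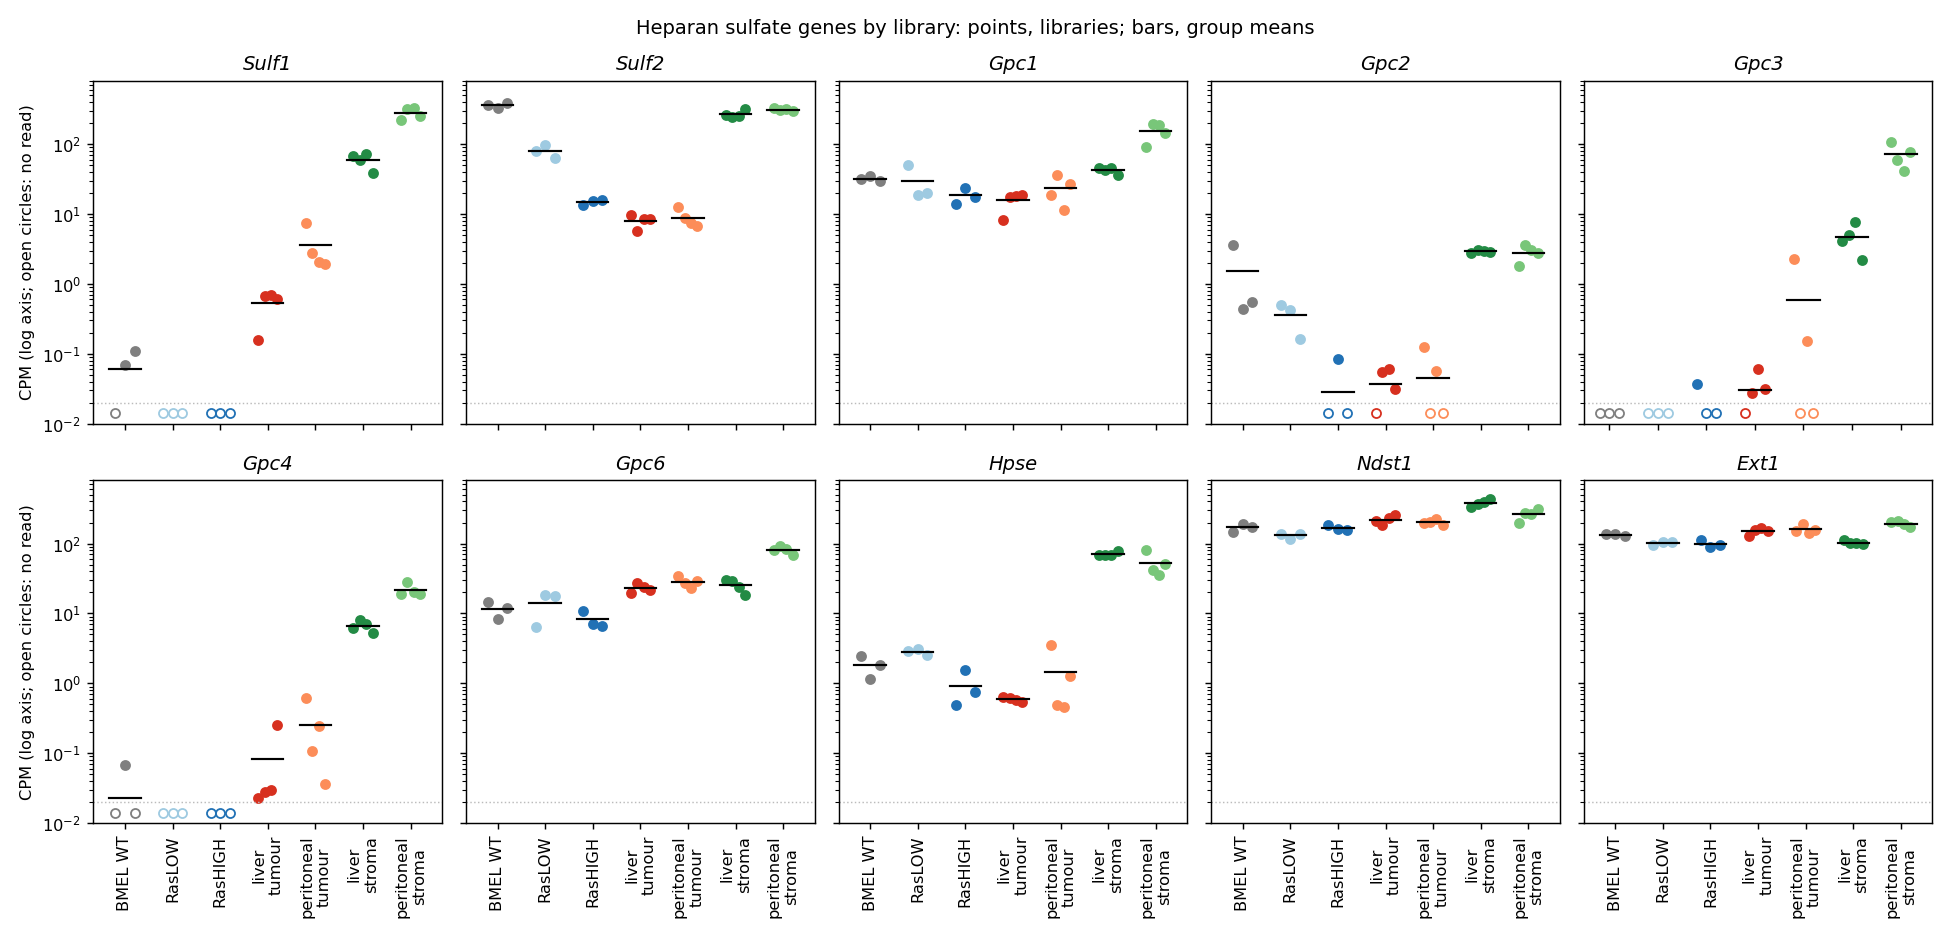
CPM of each gene (log axis) in the 25 libraries by group, with a bar at the group mean and open circles under the dotted line where a library had no read. Sulf2 steps down from BMEL WT to RasHIGH, while Sulf1, Gpc3 and Gpc4 reach more than 1 CPM in all 8 stromal libraries and in no cell line library.

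Of the glypicans, Gpc1 and Gpc6 had the most reads in the lines. Gpc1, present on many epithelial and mesenchymal cells, was at 31.8, 34.5 and 29.7 CPM in BMEL WT, 51.1, 18.5 and 20.02 CPM in RasLOW, and 14.1, 23.8 and 17.5 CPM in RasHIGH. RasHIGH lay below BMEL WT without overlap, whereas RasLOW replicate 1 was the highest of the 9 cultures. The log2 fold change was -0.83 in RasHIGH (SE 0.22, adjusted p = 0.034) and -0.14 in RasLOW (SE 0.37, adjusted p = 0.883). Gpc6 ranged from 6.46 to 18.3 CPM over the 9 cultures, and its groups overlapped. Gpc2, best known from the developing nervous system, gave 103, 13 and 15 reads in BMEL WT, 14, 13 and 4 in RasLOW, and 0, 2 and 0 in RasHIGH. RasHIGH lay below both other groups (adjusted p = 0.0267 against BMEL WT), and BMEL WT replicate 1 gave most of the reads of its group. Gpc3 gave 1 read and Gpc4 2 reads over the 9 cultures together. The liver tumour marker Gpc3 was therefore under the 3-count limit in each of the 9 cultures.

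Of the chain-cutting and chain-building enzymes, Ext1 was called in culture. Hpse was at 1.82 ± 0.662 CPM in BMEL WT, 2.82 ± 0.288 in RasLOW and 0.930 ± 0.546 in RasHIGH (n = 3 each). RasLOW did not overlap either other group, but no edgeR test passed (adjusted p = 0.415 for RasLOW and 0.212 for RasHIGH against BMEL WT, and 0.294 between them, where DESeq2 gave 0.0416). Ext1 was at 133 ± 5.36, 102 ± 4.94 and 99.2 ± 11.2 CPM in BMEL WT, RasLOW and RasHIGH. Its log2 fold change was -0.46 in RasHIGH (SE 0.12, adjusted p = 0.0342) and -0.41 in RasLOW (SE 0.12, adjusted p = 0.1). For RasLOW the adjusted p was 0.043 with DESeq2 and 0.0215 in 1 edgeR fit of all 25 libraries. Ndst1 was at 170 ± 21.7, 131 ± 11.1 and 166 ± 14.7 CPM, with no difference past the test.

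In all, 1 of the 7 members tested was lower in RasLOW than in BMEL WT, Sulf2, and 0 were higher, where 5.96% of all 12307 genes tested were called, 4.05% lower and 1.92% higher. In RasHIGH 4 of 7 were lower (Sulf2, Gpc1, Gpc2 and Ext1) and 0 higher, where 22.6% of 12331 genes were called, 11.7% lower and 10.9% higher. By the study's thresholds of fold change and p alone, with p read as unadjusted, 2 of these 4 were called, Sulf2 and Gpc2, as were 9.65% of genes. The study's filter on low RPKM was not applied, and Gpc2 lay under it, at 0.428 CPM per kilobase or less in each culture. Between RasHIGH and RasLOW Sulf2 was the 1 of 6 called, lower in RasHIGH, among 9 genes in all (0.0752% of 11962, 0.0167% lower and 0.0585% higher). The study had already listed Sulf2 as gradually repressed by Ras from the same cultures, so this call is not independent of that list. Groups did not overlap for 28.1%, 43.3% and 15.8% of genes in these 3 comparisons. The call of Sulf2 between RasHIGH and RasLOW was lost without RasLOW replicate 2 or 3 or any of RasHIGH replicates 1 to 3 (adjusted p = 0.0646 to 0.205). In RasHIGH against BMEL WT, Gpc1 was lost without any BMEL WT replicate or RasHIGH replicate 3 (adjusted p = 0.0822 to 0.119), Ext1 without any BMEL WT replicate or RasHIGH replicate 2 or 3 (0.0901 to 0.128), and Gpc2 without RasHIGH replicate 2 or 3 (0.0732 and 0.0737), while Ext1 in RasLOW passed without RasLOW replicate 2 (0.0345). Within lane 4, with 1 BMEL WT library that is assumed to vary like the others, Sulf2 kept its size (log2 fold change -2.29, adjusted p = 0.188, in RasLOW and -4.72, adjusted p = 0.00639, in RasHIGH), and Gpc1 (-0.72, adjusted p = 0.466), Gpc2 (-4.12, 0.22) and Ext1 (-0.39, 0.534) did not pass.

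**Figure D2:**
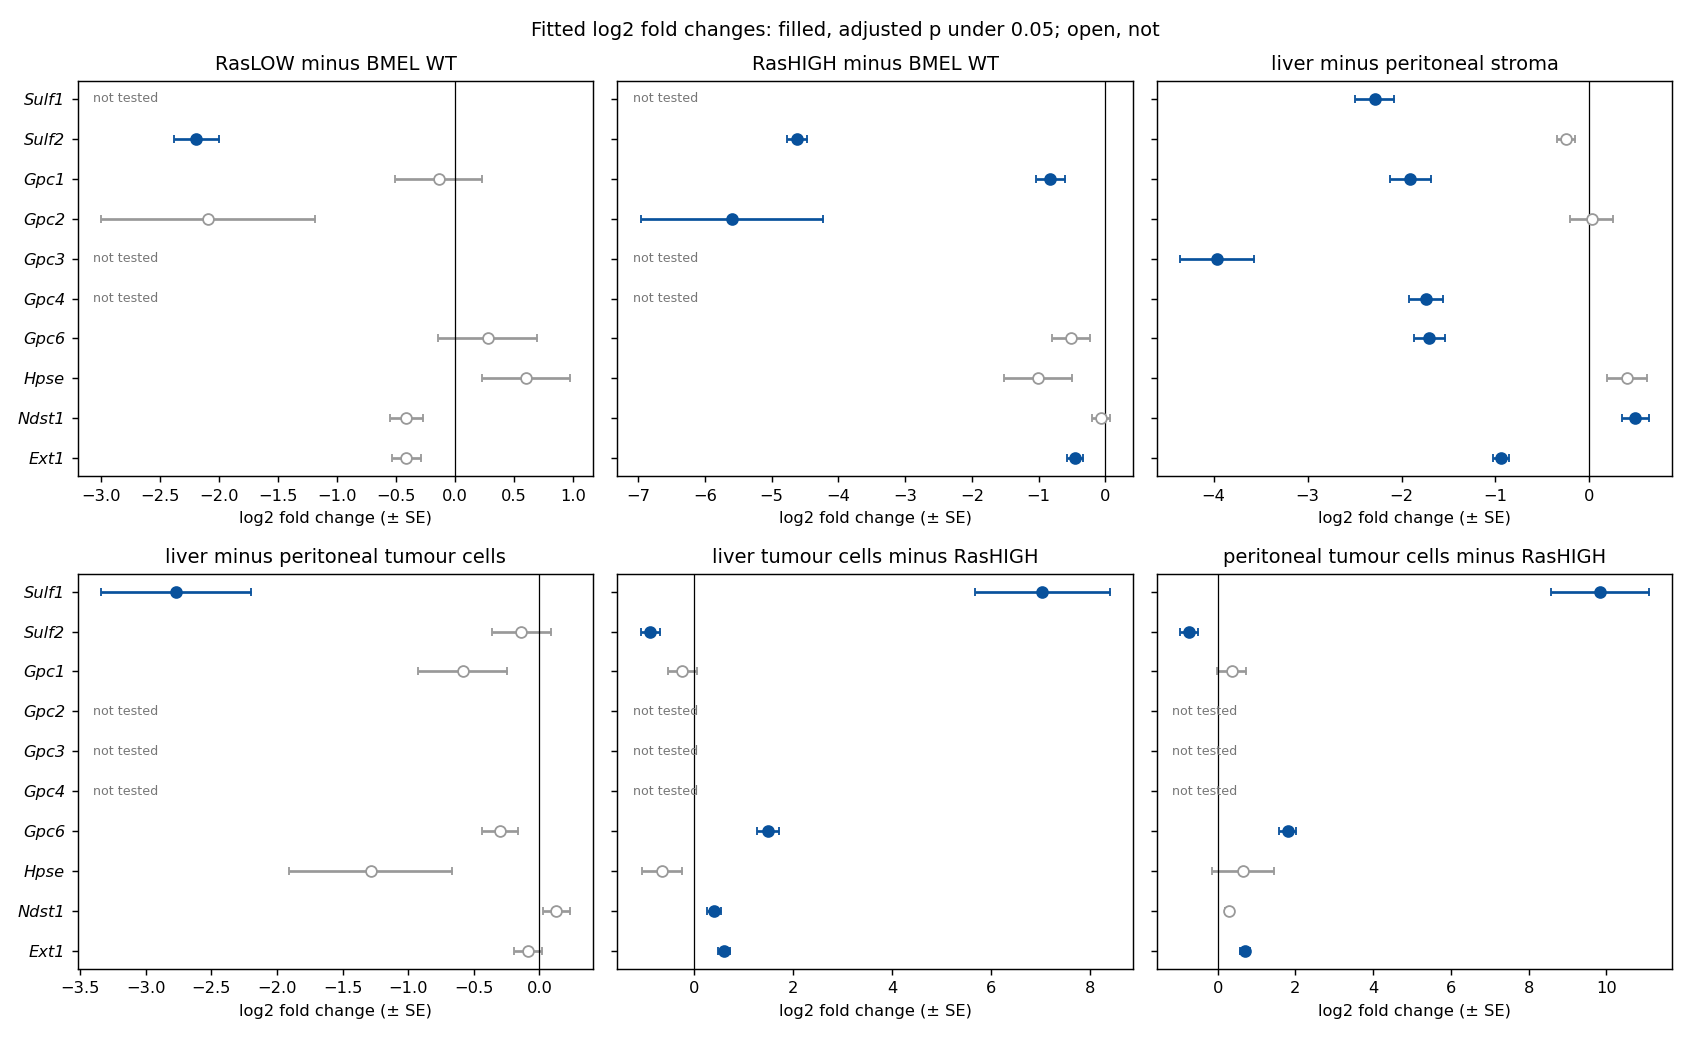
Log2 fold change ± SE of each gene (rows) in 6 comparisons (panels), filled where the adjusted p was under 0.05, with an axis range of its own in each panel. Sulf2 lies furthest to the left of the well-read genes in both Ras panels, and Sulf1, Gpc1, Gpc3, Gpc4, Gpc6 and Ext1 lie left of 0 in liver against peritoneal stroma.

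Other genes of the pathway were read from a list of 46. In RasLOW, 0 of the 35 tested rose and 1 fell, Hs6st2, and in RasHIGH 8 rose and 6 fell. Hs6st2 is a sulfotransferase that adds the 6-O-sulfate that Sulf2 removes, and it was at 132 ± 7.31 CPM in BMEL WT, 69.6 ± 1.72 in RasLOW and 9.68 ± 5.23 in RasHIGH (n = 3 each). Its log2 fold change was -0.96 (SE 0.12, adjusted p = 0.00804) in RasLOW and -3.81 (SE 0.39, adjusted p = 0.00115) in RasHIGH. A transferase and a sulfatase for the same sulfate group thus had their highest level of the 3 lines in BMEL WT and their lowest in RasHIGH. The related Hs6st1, named after its values were seen, was at 96.3 ± 21.3, 119 ± 14.6 and 156 ± 28.5 CPM. Hs3st1, which adds a rare 3-O-sulfate, rose in RasHIGH from 4.92 ± 2.17 to 31.5 ± 11.6 CPM (log2 fold change 2.64, SE 0.41, adjusted p = 0.005). Papss2, which makes the sulfate donor, fell from 16.7 ± 7.34 to 6.65 ± 1.06 CPM (log2 fold change -1.36, SE 0.36, adjusted p = 0.0357). Arsg, a lysosomal sulfatase, rose from 0.553 ± 0.0947 to 2.41 ± 1.06 CPM (log2 fold change 2.08, SE 0.41, adjusted p = 0.0122). Among 11 FGF ligands and receptors, 0 of the 5 tested rose in either population, and 2 fell in RasLOW and 3 in RasHIGH. Fgfr2, an FGF receptor that needs heparan sulfate to bind its ligand, was at 7.42 ± 2.53 CPM in BMEL WT and 0.276 ± 0.217 in RasLOW (log2 fold change -4.72, SE 0.61, adjusted p = 0.00974). In RasHIGH it was at 0.0143 ± 0.0247 CPM, under the limit of 3 counts. Fgfr3, another receptor, was at 14.7 ± 3.46, 5.74 ± 2.13 and 1.01 ± 0.385 CPM in the 3 lines (log2 fold changes -1.39 and -3.91, adjusted p = 0.0467 and 0.00083). Calls were lost for Fgfr3 in RasLOW without any BMEL WT replicate or RasLOW replicate 1 or 3 (adjusted p = 0.0506 to 0.184), for Papss2 in RasHIGH without BMEL WT or RasHIGH replicate 2 or 3 (0.102 to 0.121), and for Arsg without BMEL WT replicate 2 (0.0565), and Fgfr2 in RasLOW was at -5.61 without RasLOW replicate 2. Between RasHIGH and RasLOW, 0 of the 36 pathway genes tested and 0 of the 4 FGF genes tested were called by edgeR.

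Tumour cells sorted from mice were set beside cultured RasHIGH cells to see which levels differ in vivo. Culture against tissue, dissociation and sorting, and sequencing lane (lane 4 against lanes 1 to 3) differ together here and cannot be told apart, and the injected population is not labelled. In liver tumour cells Sulf2 was at 9.70, 5.69, 8.48 and 8.40 CPM in mice 1 to 4, and in peritoneal tumour cells at 12.6, 8.70, 7.40 and 6.80 CPM. All 8 libraries lay below the 3 RasHIGH cultures, with log2 fold changes of -0.87 in liver (SE 0.20, adjusted p = 0.00681) and -0.73 in peritoneum (SE 0.23, adjusted p = 0.0384). Sulf1, at 0 reads in RasHIGH, gave 7, 24, 23 and 19 reads in liver tumour cells and 242, 102, 109 and 53 in peritoneal tumour cells. Against the limit of 3 counts per library in RasHIGH, its mean level was at least 4.24-fold higher in liver and at least 28.6-fold higher in peritoneal tumour cells (adjusted p = 0.00582 and 0.00251). Without peritoneal mouse 1, the highest of the 4, the latter bound was 18.1-fold. Summed fibroblast genes were at 1.03 to 1.35 CPM in RasHIGH. In tumour cells they were at 40.9 to 62.3 CPM in liver and 219 to 1517 CPM in peritoneum, with mouse 1 again highest there. The part of stromal RNA in the Sulf1 and Sulf2 differences was not tested. Gpc6, whose protein is found on fibroblasts and in growing bone, was at 19.4, 27.5, 24.3 and 21.6 CPM in liver and 34.0, 27.5, 23.4 and 29.2 CPM in peritoneal tumour cells, above every cell line culture. Its log2 fold change against RasHIGH was 1.49 (SE 0.22, adjusted p = 0.000818) in liver and 1.80 (SE 0.22, adjusted p = 0.000995) in peritoneum. Gpc1 overlapped RasHIGH in both sites.

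Ext1 was at 150 ± 15.4 CPM in liver and 159 ± 20.4 CPM in peritoneal tumour cells (n = 4 each), against 99.2 ± 11.2 CPM in RasHIGH. The log2 fold changes were 0.60 (SE 0.13, adjusted p = 0.00456) and 0.70 (SE 0.13, adjusted p = 0.00554). Ndst1 was higher in liver tumour cells, at 219 ± 31.3 against 166 ± 14.7 CPM (log2 fold change 0.41, SE 0.13, adjusted p = 0.0349), and in peritoneal tumour cells it was at 200 ± 15.2 CPM (log2 fold change 0.29, SE 0.11, adjusted p = 0.0678). Hpse overlapped RasHIGH in both. Of 7 members tested, 4 were higher and 1 lower in liver tumour cells, where 45.1% of 12971 genes were called (23.0% higher, 22.1% lower), and 3 higher and 1 lower in peritoneal tumour cells, where 37.9% of 12791 genes were called (19.3% higher, 18.6% lower). With the study's thresholds for sorted cells (absolute log2 fold change over 1, p under 0.05, read as unadjusted) and no filter on low RPKM, 2 members were called in each, Sulf1 and Gpc6, and 23.5% and 20.1% of genes. Groups did not overlap for 48.7% and 44.8% of genes. Both comparisons share the RasHIGH cultures. The call of Ndst1 in liver was lost without RasHIGH replicate 2 or 3 or liver tumour cells of mouse 1, 3 or 4 (adjusted p = 0.0509 to 0.113), and that of Sulf2 in peritoneum without RasHIGH replicate 2 or 3 or mouse 2, 3 or 4 (0.0963 to 0.111). Ndst1 in peritoneum passed without RasHIGH replicate 1 (0.0186).

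Of the 35 other pathway genes tested against RasHIGH, 11 rose and 5 fell in liver tumour cells, and 11 rose and 3 fell in peritoneal tumour cells. Ndst3 belongs to the same enzyme family as Ndst1, and it was at 3.99 ± 0.471 CPM in RasHIGH, 52.0 ± 6.15 in liver and 37.3 ± 10.7 in peritoneal tumour cells. Its log2 fold changes were 3.71 (SE 0.17, adjusted p = 3.33e-06) and 3.24 (SE 0.27, adjusted p = 0.00022). Per kilobase Ndst3 in liver tumour cells came to 8.41 CPM, below the 33.3 CPM of Ndst1. Ndst3 was at 8.08 ± 1.76 CPM in liver stroma and 3.54 ± 1.34 CPM in peritoneal stroma, so the tumour cell level exceeded that of the stroma sorted from the same tumours. Sdc2, a transmembrane core protein, rose with log2 fold changes of 1.66 (SE 0.44, adjusted p = 0.0149) and 1.90 (SE 0.60, adjusted p = 0.0381). Hs3st1 fell with log2 fold changes of -1.58 (SE 0.28, adjusted p = 0.00204) and -2.05 (SE 0.25, adjusted p = 0.000909), and Hs3st3b1 of -1.83 (SE 0.38, adjusted p = 0.00489) and -2.29 (SE 0.43, adjusted p = 0.00535). Of the FGF genes tested, 2 of 5 rose and 1 fell in liver and 3 rose and 1 fell in peritoneum. Fgf18, a secreted ligand, was at 1.22 ± 0.850 CPM in RasHIGH and at 21.2 ± 1.23 and 14.4 ± 2.03 CPM in liver and peritoneal tumour cells (log2 fold changes 4.14, SE 0.41, adjusted p = 0.000113, and 3.58, SE 0.45, adjusted p = 0.00105). Fgf1 fell with log2 fold changes of -1.30 (SE 0.30, adjusted p = 0.00706) and -1.04 (SE 0.26, adjusted p = 0.0165). Fgfrl1 rose in liver (log2 fold change 1.73, SE 0.35, adjusted p = 0.00408). Fgfr1 was at 11.6, 1.76, 1.58 and 1.62 CPM in peritoneal tumour cells of mice 1 to 4 and at 272 ± 30.2 CPM in peritoneal stroma (log2 fold change against RasHIGH 4.20, SE 1.24, adjusted p = 0.0296). Mouse 1 carried its mean, and without it the log2 fold change was 2.90 (adjusted p = 0.0363), while without RasHIGH replicate 1 it was 6.46 (0.0105) and without replicate 2 or 3 the call was lost (0.103 and 0.0761). Calls were also lost for Sdc2 in liver without RasHIGH replicate 2 (0.0582), for Sdc2 in peritoneum without any RasHIGH replicate or peritoneal mouse 1, 2 or 3 (0.0554 to 0.125), and for Fgf1 in peritoneum without RasHIGH replicate 3 (0.0572) or mouse 2 (0.0507). Without RasHIGH replicate 1 the log2 fold changes of Hs3st3b1 were -1.12 and -1.59, and without replicate 3 those of Fgf18 were 4.82 and 4.26.

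Stromal cells held most members at higher levels than tumour cells, and the stromas of the 2 sites differed. Sulf1 was at 67.5, 59.1, 72.0 and 38.3 CPM in liver stroma and at 221, 319, 327 and 253 CPM in peritoneal stroma. The sites did not overlap, and the log2 fold change of liver against peritoneum was -2.28 (SE 0.21, adjusted p = 3.78e-05). Sulf2 was at 262, 249, 255 and 320 CPM in liver stroma and 329, 309, 316 and 298 CPM in peritoneal stroma, where mouse 4 of the liver fell within the peritoneal range (log2 fold change -0.25, SE 0.10, adjusted p = 0.0752). Per kilobase, Sulf1 made 21.7% of the sulfatase level in liver stroma and 52.7% in peritoneal stroma (means of 4 mice). The summed sulfatase level was 59.5 ± 3.19 CPM per kilobase in liver stroma, beside 61.6 ± 4.30 in BMEL WT, and 115 ± 10.7 in peritoneal stroma.

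Of the 5 glypicans, 4 were lower in liver stroma. Gpc3 was at 4.05, 4.94, 7.67 and 2.21 CPM in liver stroma and 109, 58.6, 41.9 and 77.7 CPM in peritoneal stroma, a 15.2-fold difference in mean (log2 fold change -3.96, SE 0.39, adjusted p = 6.44e-05). Its neighbour Gpc4 was at 6.14, 8.14, 6.95 and 5.33 CPM in liver stroma and 19.0, 28.1, 20 and 19.2 CPM in peritoneal stroma (log2 fold change -1.74, SE 0.18, adjusted p = 8.41e-05). Gpc1 was at 42.3 ± 4.66 and 154 ± 47.1 CPM (log2 fold change -1.91, SE 0.22, adjusted p = 0.000159), and Gpc6 at 25.6 ± 5.45 and 81.2 ± 10.5 CPM (log2 fold change -1.71, SE 0.16, adjusted p = 5.19e-05). In none of these glypicans did the sites overlap. Gpc2 was at 2.92 ± 0.128 and 2.80 ± 0.729 CPM (adjusted p = 0.949). Per kilobase, Gpc1 made on average 61.9% of the level of the 5 glypicans in liver stroma and 49.1% in peritoneal stroma, and Gpc3 8.92% and 31.2%. Mice ranged in peritoneal stroma from 31.0% to 61.5% for Gpc1 and from 18.5% to 49.5% for Gpc3. Peritoneal stroma of mouse 1 held more Gpc3 than Gpc1 (40.4 against 25.3 CPM per kilobase). In tumour cells Gpc1 and Gpc6 made on average 62.4% and 37.0% of the glypican level in liver, and 63.9% and 32.6% in peritoneum.

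**Figure D3:**
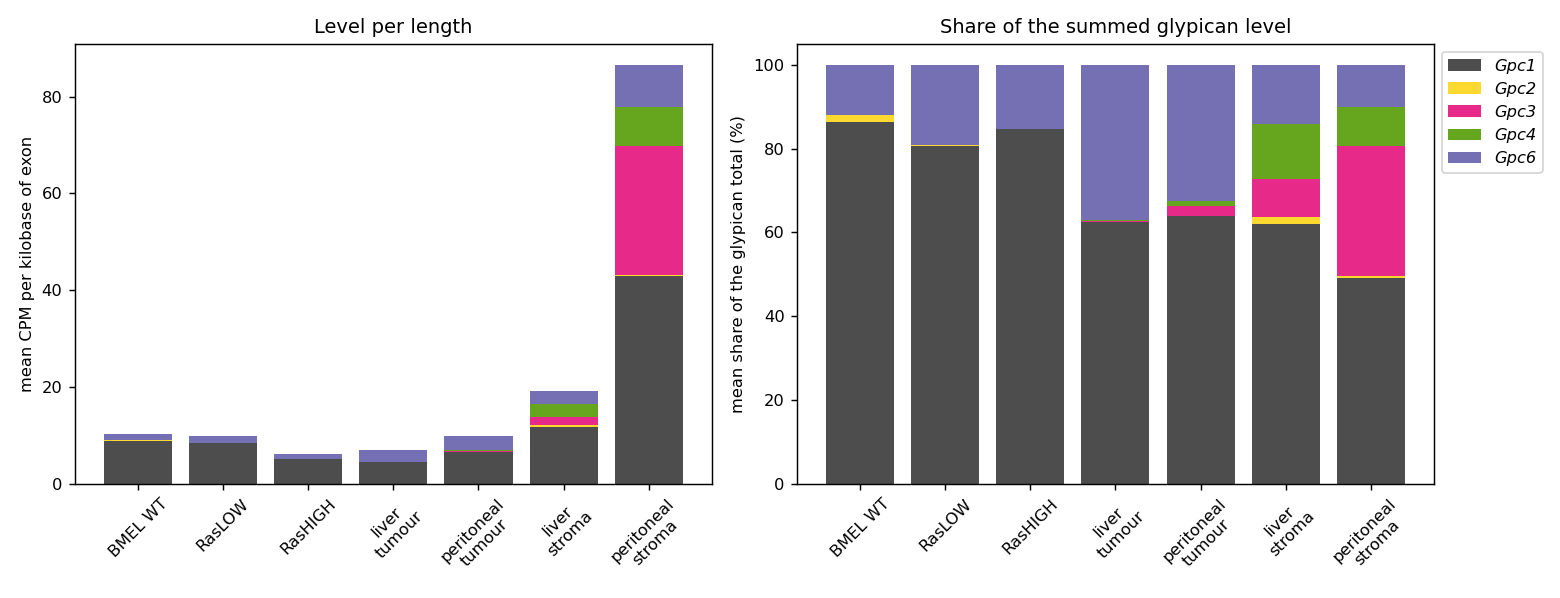
Stacked bars of the mean level of 5 glypicans per kilobase of exon in each group (left) and their mean share of the summed level in percent (right). Gpc1 is the largest mean share in each group, Gpc6 takes more of the total in tumour cells than in the lines, and Gpc3 is large in peritoneal stroma.

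Hpse did not separate the stromas, at 69.1, 69.4, 67.8 and 78.1 CPM in liver and 80.2, 42.3, 35.8 and 50.8 CPM in peritoneum (log2 fold change 0.40, SE 0.21, adjusted p = 0.174), and mouse 1 was the highest of the 4 in peritoneum. Ext1 was at 103 ± 5.17 CPM in liver and 193 ± 16.2 CPM in peritoneal stroma, without overlap (log2 fold change -0.95, SE 0.09, adjusted p = 3.63e-05). Ndst1 had the opposite direction, at 379 ± 41.5 against 262 ± 49.8 CPM (log2 fold change 0.49, SE 0.15, adjusted p = 0.0268). All 10 members were tested here, of which 6 were lower and 1 higher in liver stroma, where 33.4% of 14755 genes were called, 18.5% lower and 14.9% higher, and 33.8% did not overlap. Without 1 library, Ndst1 lost its call (liver stroma of mouse 3 or 4, or peritoneal stroma of mouse 2 or 3, adjusted p = 0.0535 to 0.0762), Sulf2 passed (without liver stroma of mouse 4, 0.0208), and Hpse passed with a log2 fold change of 0.66 (without peritoneal stroma of mouse 1, adjusted p = 0.00264).

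Of the other pathway genes, 14 of 37 tested were lower and 4 higher in liver stroma. Hspg2 encodes perlecan, the large core protein of basement membranes, and was at 312 ± 42.6 CPM in liver and 1192 ± 306 CPM in peritoneal stroma (log2 fold change -1.97, SE 0.19, adjusted p = 5.98e-05). Hs6st2 was lower in liver (log2 fold change -2.13, SE 0.33, adjusted p = 0.00103). Hs3st3b1, a 3-O-sulfotransferase, was at 107 ± 18.1 CPM in liver and 47.7 ± 17.7 CPM in peritoneal stroma (log2 fold change 1.13, SE 0.25, adjusted p = 0.00693), and Ndst3 was higher in liver as well (1.15, SE 0.30, adjusted p = 0.0155). Tumour cells held more Ndst3 than stroma, at 52.0 ± 6.15 CPM in liver and 37.3 ± 10.7 CPM in peritoneum. The part of tumour cell RNA in the stromal levels of Ndst3 was not tested. Of 11 FGF genes, 7 were lower and 0 higher in liver stroma. Fgf7, a ligand made by mesenchymal cells, was at 0.0787 ± 0.0899 CPM in liver and 26.0 ± 4.87 CPM in peritoneal stroma (adjusted p = 1.3e-06), and Fgf10 at 0.266 ± 0.284 and 5.58 ± 2.19 CPM (log2 fold change -4.38, SE 0.64, adjusted p = 0.00069, and -5.23 without liver stroma of mouse 3).

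Marker genes of cell types differed between the stromas too. The summed level of 8 fibroblast genes was 4170 to 8542 CPM in liver stroma and 55972 to 84067 CPM in peritoneal stroma, with all 8 above 0 in both. The 4 leukocyte genes summed to 3194 to 3908 CPM in liver and 2100 to 2578 CPM in peritoneum, the 6 endothelial genes to 526 to 1078 and 358 to 530 CPM, and the 6 macrophage genes to 2121 to 2243 and 1181 to 1833 CPM, with the Kupffer cell gene Clec4f at 0 in peritoneum. Hepatocyte genes summed to 46.2 to 290.4 CPM in liver and 0.904 to 3.06 CPM in peritoneal stroma, epithelial or progenitor genes to 1332 to 1685 and 721 to 1196 CPM, and mesothelial genes, which overlapped, to 74.6 to 154 and 104 to 134 CPM. The mesothelial sum was higher in the cell lines (552 to 2620 CPM) and tumour cells (218 to 473 CPM), so it was not particular to stroma. Over the 25 libraries Msln gave 405866 counts, beside 9656 for Wt1, 4262 for Upk3b and 2372 for Lrrn4. The higher sums may therefore not hold for Wt1, Upk3b or Lrrn4. The part of tumour cell RNA in the stromal sums was not tested. The part of these shifts between the stromas in the differences of Sulf1, the glypicans, Hpse, Ndst1, Ext1 and Ndst3 was not tested. In bulk samples fewer cells of a type and less RNA per cell cannot be told apart.

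Against stroma of the same tumours, tumour cells were low in most members. In liver 8 of 10 were lower and 1 higher, where 77.8% of 14620 genes were called, 39.4% lower and 38.4% higher, and in peritoneum 8 of 10 were lower and 0 higher, where 76.6% of 14584 genes were called, 37.1% lower and 39.5% higher. Groups did not overlap for 73.2% and 72.8% of genes. Sulf2 in tumour cells was at 2.29% to 3.70% of the level in stroma of the same mouse in liver and 2.28% to 3.83% in peritoneum (log2 fold changes -5.06, SE 0.17, adjusted p = 1.17e-10, and -5.04, SE 0.21, adjusted p = 7.31e-07). Sulf1 was at 0.233% to 1.58% in liver and 0.636% to 3.40% in peritoneum. Hpse was at 0.693% to 0.912% in liver and 1.15% to 4.42% in peritoneum, and Gpc4 at 0.342% to 4.77% and 0.192% to 3.27%. Gpc2 and Gpc3 each had no read in 3 of the 8 tumour libraries, and their highest percentages were 6.78% and 2.06%, both in the peritoneum of mouse 1. Levels of Gpc1 were 18.1% to 52.8% of stroma in liver and 6.15% to 20.5% in peritoneum.

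In each mouse and site, Gpc6, Ext1 and Ndst1 were at a higher percentage of stroma than the other members. Ndst1 in liver and Gpc6 in peritoneum were still among those called lower. Gpc6 in liver tumour cells was at 63.4%, 94.2%, 101% and 116% of the stroma in mice 1 to 4 (log2 fold change -0.14, SE 0.16, adjusted p = 0.459), and in peritoneum at 28.0% to 43.3% (log2 fold change -1.41, SE 0.13, adjusted p = 2.34e-05). Ext1 in liver was higher in tumour cells, at 116% to 159% of stroma (log2 fold change 0.55, SE 0.09, adjusted p = 0.00015), and in peritoneum it was at 74.2% to 90.2% (log2 fold change -0.18, SE 0.11, adjusted p = 0.158). Ndst1 was lower in liver tumour cells, at 49.9% to 63.0% (log2 fold change -0.78, SE 0.12, adjusted p = 7.33e-05), and in peritoneum at 58.9% to 99.6% (log2 fold change -0.29, SE 0.14, adjusted p = 0.096). In peritoneum these last calls changed with the processing. With RLE normalization Ext1 (-0.32, adjusted p = 0.0218) and Ndst1 (-0.43, adjusted p = 0.0237) were lower in tumour cells, while the median of all genes moved from 0.0699 to -0.0695. Both were also called lower with DESeq2 (adjusted p = 0.0232 and 0.0223) and in 1 edgeR fit of all 25 libraries (0.0135 and 0.0114). The same calls were made without peritoneal tumour cells of mouse 2 for Ext1 (adjusted p = 0.0186) and without peritoneal stroma of mouse 1 for Ndst1 (0.0067).

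Of the 37 other pathway genes tested, 14 were higher and 16 lower in liver tumour cells than in stroma, and 14 higher and 17 lower in peritoneum. Of the 8 genes of degradation and shedding tested, 7 were lower and 0 higher in each site, while of the 7 core protein genes 4 were higher and 3 lower in each. Col18a1, whose collagen XVIII core carries heparan sulfate in basement membranes, was at 1526 ± 106 against 235 ± 41.9 CPM in liver and 1735 ± 264 against 351 ± 19.1 CPM in peritoneum (log2 fold changes 2.71 and 2.41, adjusted p = 3.81e-09 and 1.17e-06). Ndst3 was higher by 2.69 and 3.50 on the log2 scale (adjusted p = 1.86e-08 and 2.75e-05). Xylt1, which starts the linker on the core protein, was at 14.8 ± 4.12 and 14.5 ± 2.24 CPM in the stromas and under the 3-count limit on average in tumour cells (adjusted p = 2.27e-08 and 2.75e-05). Hs3st3a1 was at 2.38 ± 0.763 and 2.04 ± 0.564 CPM in the stromas and 0.0345 ± 0.0354 and 0.0251 ± 0.0306 CPM in tumour cells (adjusted p = 8.13e-07 and 2.83e-05). Of the FGF genes tested, 2 of 8 were higher and 4 lower in liver tumour cells, and 8 of 11 lower in peritoneal tumour cells. Fgfr2 was at 5.57 ± 0.883 and 5.03 ± 2.09 CPM in the stromas and at 0.0340 ± 0.0355 and 0.0311 ± 0.0622 CPM in the tumour cells.

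Markers of stromal cells were read in the tumour cell sorts as well. Fibroblast genes in liver tumour cells summed to 0.479%, 0.833%, 0.938% and 1.49% of their level in stroma of mice 1 to 4, beside 0.233%, 1.13%, 0.957% and 1.58% for Sulf1. In peritoneal tumour cells the fibroblast sum was 2.71%, 0.404%, 0.400% and 0.371% of stroma, beside 3.40%, 0.863%, 0.636% and 0.769% for Sulf1 and 2.06%, 0%, 0.364% and 0% for Gpc3. Mouse 1 was the highest in each of these peritoneal series. Macrophage genes were at 0.942% to 1.22% of stroma in liver tumour cells and 0.698% to 3.98% in peritoneal tumour cells, again with mouse 1 highest. Endothelial genes were higher, at 9.90% to 34.9% of stroma in liver and 13.5% to 65.5% in peritoneal tumour cells, and hepatocyte genes were at 9.22% to 43.3% in liver. The part of stromal RNA in the tumour cell levels of Sulf1, Sulf2, Gpc2, Gpc3, Gpc4 and Hpse was not tested.

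**Figure D4:**
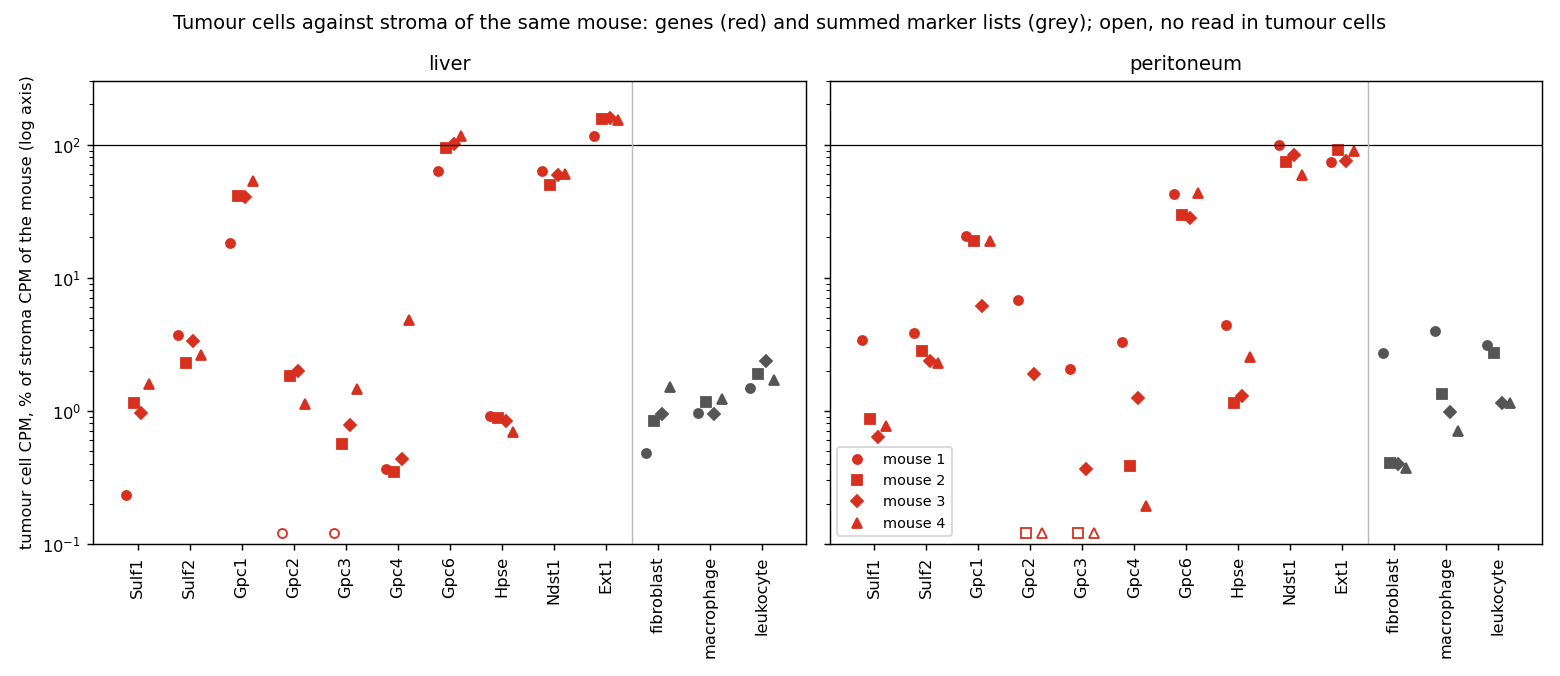
Level in tumour cells as a percentage of the level in stroma of the same mouse (log axis), for the 10 genes (red) and 3 summed marker lists (grey), in liver (left) and peritoneum (right), 1 symbol per mouse and open symbols for no read. In liver Gpc6 lies at 63.4% to 116%, Ext1 at 116% to 159% and Ndst1 at 49.9% to 63.0%. Over both sites Sulf1, Sulf2, Gpc3, Gpc4 and Hpse lie at 4.77% or less in each mouse, beside marker lists at 0.371% to 3.98%.

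Between liver and peritoneal tumour cells of the same mice, 1 of 7 members tested was called, Sulf1, lower in liver, where 3.2% of 13074 genes were called, 1.87% lower and 1.33% higher. Its levels were 0.158, 0.669, 0.689 and 0.605 CPM in liver and 7.52, 2.76, 2.08 and 1.95 CPM in peritoneum, without overlap, as for 12.1% of genes (log2 fold change -2.77, SE 0.57, adjusted p = 0.033). With the mouse as a block the adjusted p was 0.128 (log2 fold change -2.54), and 102 genes were called in place of 419. Without peritoneal tumour cells of mouse 1, where fibroblast genes were highest, the log2 fold change was -2.10 (adjusted p = 0.0175), and without liver tumour cells of mouse 2, 3 or 4 the call was lost (adjusted p = 0.105, 0.0668 and 0.0943). The fibroblast sum was 40.9 to 62.3 CPM in liver and 219 to 1517 CPM in peritoneal tumour cells, also without overlap. Sulf2 (adjusted p = 0.77), Gpc1 (0.372), Gpc6 (0.26), Hpse (0.278), Ndst1 (0.534) and Ext1 (0.685) overlapped between sites. Of 35 other pathway genes tested, 3 were lower in liver tumour cells and 0 higher. Among them Agrn, a core protein of basement membranes, was at 369 ± 27.4 and 533 ± 86.0 CPM in liver and peritoneum (log2 fold change -0.53, SE 0.11, adjusted p = 0.0366), and Sgsh, a lysosomal enzyme of heparan sulfate breakdown, at 12.8 ± 1.52 and 19.3 ± 2.80 CPM (-0.59, SE 0.13, adjusted p = 0.037). Fgf18 was the 1 of 6 FGF genes called, higher in liver (0.56, SE 0.12, adjusted p = 0.033). Each of these 3 calls was lost without 1 library: Agrn without any liver mouse or peritoneal mouse 2, 3 or 4 (adjusted p = 0.0671 to 0.128), Sgsh without any liver mouse or peritoneal mouse 3 or 4 (0.0503 to 0.119), and Fgf18 without liver mouse 2, 3 or 4 or peritoneal mouse 2 or 3 (0.0534 to 0.112).

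Whether the site difference itself differed between tumour cells and stroma was tested over the 16 sorted libraries. It did for Gpc6, by 1.33 on the log2 scale (SE 0.22, adjusted p = 0.00108), with -0.30 in tumour cells and -1.71 in stroma, and for Ext1, by 0.78 (SE 0.14, adjusted p = 0.00156), with -0.09 in tumour cells and -0.95 in stroma. These were 2 of 10 members, both positive, where 14.3% of 15331 genes were called, 6.79% positive and 7.5% negative, and the median of all genes was -0.12. Gpc1 (1.24, SE 0.46, adjusted p = 0.0849) did not pass, and did so without liver tumour cells of mouse 1 (1.45, adjusted p = 0.0391), peritoneal tumour cells of mouse 2 (1.54, 0.0322) or peritoneal stroma of mouse 1 (1.48, 0.0373). Hpse (-1.70, SE 0.68, adjusted p = 0.109) passed without peritoneal tumour cells of mouse 3 (-2.05, 0.0395). For Sulf1 the difference was -0.58 (SE 0.60, adjusted p = 0.561). Of 37 other pathway genes tested, 6 had a positive and 3 a negative difference, among them Hspg2 (1.38, SE 0.25, adjusted p = 0.00173), Ugdh (1.18, SE 0.19, adjusted p = 0.00072), Hs6st1 (-0.72, SE 0.14, adjusted p = 0.00296) and Agrn (-0.60, SE 0.18, adjusted p = 0.0338). The call of Agrn was lost without liver tumour cells of mouse 1, 2 or 3, peritoneal tumour cells of mouse 2, 3 or 4, liver stroma of mouse 4, or peritoneal stroma of mouse 1, 3 or 4 (adjusted p = 0.0531 to 0.106). Of 11 FGF genes 4 had a positive and 0 a negative difference, with Fgf7 (adjusted p = 5.51e-06) and Fgf2 (4.06, SE 1.03, adjusted p = 0.0155, with 3.35 without liver tumour cells of mouse 3 and 4.74 without peritoneal tumour cells of mouse 2) the greatest of the 4.

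Over the 7 groups, Sulf1 fell in the order peritoneal stroma, liver stroma, peritoneal tumour cells, liver tumour cells and the lines, with no overlap between neighbours down to BMEL WT. Sulf2 was highest in BMEL WT, then in both stromas, which overlapped, then in RasLOW, RasHIGH and the tumour cells of both sites, which overlapped. Gpc1, Gpc3, Gpc4 and Gpc6 were highest in peritoneal stroma without overlap with any other group, while Ndst1 was highest in liver stroma and Hpse in both stromas, which overlapped. Ext1 was highest in peritoneal stroma and overlapped with peritoneal tumour cells. Among 13192 genes at a mean of 1 CPM or more, the profile of Sulf1 over 25 libraries, as log2(CPM + 1), was nearest to Rcn3, Meg3 and Olfml3 (Pearson r = 0.998, 0.998 and 0.997). That of Sulf2 was nearest to Cbr1, Ptp4a3 and Epb41l3 (0.97, 0.97 and 0.965). The study had listed Cbr1 and Ptp4a3, like Sulf2, as gradually repressed by Ras in the same cultures, so their likeness is not independent of that list. The profile of Hpse was nearest to Slamf9, Gmfg and Ifi30 (0.99, 0.989 and 0.986). Gpc3 was nearest to Srpx, Prelp and Ccn3 (0.993, 0.992 and 0.989), Gpc4 to Cnrip1, Rnf150 and Tshz3 (0.997 each), and Gpc6 to Mmp14, Fkbp7 and Rcan1 (0.947, 0.942 and 0.93). For Gpc1 they were Lman1, Pdia5 and Vkorc1 (0.93, 0.929 and 0.923), for Gpc2 Robo1, Jag2 and Khdrbs3 (0.971, 0.963 and 0.962), for Ndst1 Abr, Gcnt2 and Myo9b (0.945, 0.933 and 0.929), and for Ext1 Prnp, Sspn and Slc4a3 (0.917, 0.913 and 0.896). Within the members, Sulf1 and Gpc4 had r = 0.98 and Gpc3 and Gpc4 r = 0.96. These points share groups, mice and library, and the values describe likeness over 7 groups, not independent samples.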

How the data were processed

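RNAseq was performed on 3 cultures of each cell line and on tumour and stromal cells of 2 sites from 4 mice. The authors aligned reads to mm9 with TopHat2 and deposited raw counts per gene, without normalization. The submitters' processing notes name FastQC and Bowtie 0.12.2, with the builds mm8 and mm10. The counting program, its strand setting and the annotation are not given in the sources used here. No 2 libraries held identical values.

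Each comparison used the libraries of its 2 groups (all 16 sorted libraries for the difference of site differences). Counts were filtered with filterByExpr (minimum count 10), normalized by TMM and compared by the quasi-likelihood F-test of edgeR 4.0.16 in R 4.3.3, with p-values adjusted by Benjamini-Hochberg over every gene in the fit and calls at 0.05. Errors of log2 fold changes are the absolute change divided by the square root of F. Where a library had no read, a fold was taken against 3 counts per library. Lengths are union exon lengths of GENCODE vM1. Emr1 was matched as Adgre1. The edgeR step was also run on simulated counts, with the same dispersion for every gene and no pairing of mice. That run cannot show how the test behaves on these libraries.

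Alternatives were DESeq2 1.42.0, RLE normalization, no filter, 1 fit of all 25 libraries, a block by replicate or mouse, lane 4 alone, the study's thresholds (absolute log2 fold change over 1.5 and p under 0.01 in lines, over 1 and under 0.05 where sorted cells enter, without its filter on low RPKM) and leaving out each library. The study does not say whether its p was adjusted, and its list of gradual genes gives adjusted values. Here the p was read as unadjusted, which is an assumption. Mouse numbers pair the sorted samples, since they come from the same animal. Correlations of deviations between paired libraries ran from -0.17 to 0.26. Named genes were the 10 members, and from each list up to 2 rising and 2 falling the most among called genes at a mean of 1 CPM or more. Members and gene lists were chosen with earlier results of these data known.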

Additional observations from a re-analysis of the deposited data

Results flagged for a closer look

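Of 40 groups of 4 mice tested for a library far from the others, 7 were marked, where chance marks about 1 in 20. In liver tumour cells mouse 1 was low in Sulf1 (0.158 CPM, others 0.605 to 0.689) and in Gpc1 (8.35 CPM, others 17.4 to 18.9), and mouse 4 was high in Gpc4 (0.255 CPM, others 0.0225 to 0.03). In peritoneal tumour cells mouse 1 was high in Sulf1 (7.52 CPM, others 1.95 to 2.76) and Gpc3 (2.24 CPM, others 0 to 0.152), and it was also the highest of the 4 in summed fibroblast genes (1517 CPM, others 219 to 336) and macrophage genes (69.1 CPM, others 12.8 to 15.7). The part of stromal RNA in these levels was not tested. In stroma, Gpc4 was high in the peritoneum of mouse 2 (28.1 CPM, others 19.0 to 20) and Hpse in the liver of mouse 4 (78.1 CPM, others 67.8 to 69.4).

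The liver against peritoneum difference was unequal in tumour cells and stroma for Gpc6 (by 1.33 on the log2 scale, adjusted p = 0.00108) and for Ext1 (by 0.78, adjusted p = 0.00156), by the edgeR test of that difference.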

How the results depend on the processing

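Over the fits of single members, 1080 of 1157 alternatives kept the call, 54 lost a call, 23 gained one and none reversed a called direction. Where a result was not called, its direction could change, as for Gpc1 in RasLOW against BMEL WT (log2 fold change -0.75 to 0.1). The number of members called in RasLOW against BMEL WT was 1, and 2 with DESeq2 or all 25 libraries in 1 fit, 0 in lane 4 alone and 1 to 2 without 1 library. In RasHIGH against BMEL WT it was 4, and 1 in lane 4, 2 by the study's thresholds and 1 to 4 without 1 library. Between RasHIGH and RasLOW it was 1, and 2 with DESeq2, 0 with the replicate block and 0 to 1 without 1 library. Between tumour cells of the sites it was 1, and 0 with the mouse as a block and 0 to 1 without 1 library. For liver and peritoneal tumour cells against RasHIGH it was 5 and 4, and 2 and 2 by the study's thresholds, with 3 to 5 and 3 to 5 without 1 library. Without 1 library it was 6 to 8 between stromas, 9 in tumour against stroma in liver and 8 to 9 in peritoneum, and 2 to 3 for the difference of site differences.

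Culture numbers did not pair the libraries (correlations -0.48 to 0.21), and the replicate block changed the call of 2 of 20 member results, Sulf2 between RasHIGH and RasLOW (adjusted p = 0.177) and Ext1 in RasHIGH against BMEL WT (0.0645). The mouse block changed 1 of 47, Sulf1 between tumour cells, and no other call. Counts over all genes moved more: in RasLOW against BMEL WT 734 genes were called, 1639 with DESeq2, 2440 in 1 fit of all libraries, 295 with the block, 0 in lane 4 and 148 to 2340 without 1 library. In RasHIGH against BMEL WT 2789 were called, 4347 in 1 fit, 316 in lane 4, 1190 by the study's thresholds and 1517 to 3896 without 1 library. Between RasHIGH and RasLOW 9 genes were called, 416 with DESeq2, 77 without a filter, 917 in 1 fit, 0 with the block by edgeR (789 at an unadjusted p under 0.05), 253 by the study's thresholds and 0 to 16 without 1 library. Between tumour cells of the sites 419 were called, 1235 with DESeq2, 102 with the block and 41 to 884 without 1 library, and for the difference of site differences 2191, and 1180 in 1 fit. The share of higher calls was 32.2% in RasLOW against BMEL WT and 51.1% in 1 fit, 48.1% in RasHIGH against BMEL WT and 28.8% in lane 4, 77.8% between RasHIGH and RasLOW and 58.4% with DESeq2, 41.5% between tumour cells and 29.7% in 1 fit, and 47.5% against 61.5% in 1 fit for the difference of site differences. With DESeq2 the median of all genes moved to -0.247 in both comparisons of tumour cells with stroma, from 0.0036 in liver and 0.0699 in peritoneum, and against RasHIGH to 0.109 in liver and 0.129 in peritoneum. Depth limits Sulf1, Gpc3 and Gpc4 in the lines, at 0 to 3 counts per library, and Gpc2 in RasHIGH, at 0 to 2. Why calls were lost was not tested.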
